A study of Mus musculus with 6 samples.

Results

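Elane and Mpo were followed across the leukocytes of mouse liver that carried early or established metastases. The 2 genes were chosen by symbol, and both are present in each of the 3 deposited matrices, which hold 4486 (tumour-free tissue), 2669 (micrometastasis) and 2643 genes (macrometastasis). The cells were CD45+ leukocytes sorted from the livers of Balb/c mice after intracardiac injection of 4T07 mouse mammary tumour cells and were read by droplet RNA sequencing of transcript 3' ends. The tumour cells were either control cells (Ctrl) or cells with a short-hairpin knockdown of Tim3 (Tim3-KD). Tissue was taken next to lesions at day 3 (labelled as no-tumour samples, here adjacent tissue), as micrometastasis at day 3 and as macrometastasis at day 12. Each combination is 1 library, made from pooled mice according to the methods of the study, so that no difference between groups could be tested against the spread between animals. The hairpin acts in the tumour cells, and the sort for CD45 removes them, so the level of the Tim3 gene in these libraries does not check the labels.

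Neutrophil elastase, the product of Elane, is a serine protease, and myeloperoxidase, the product of Mpo, makes hypochlorous acid from hydrogen peroxide and chloride. Both proteins are stored in azurophil (primary) granules. These granules are built early in neutrophil development, at the promyelocyte step, and the transcripts of their contents are shut off when myelocytes begin to make the specific granules that carry lactoferrin. A circulating neutrophil thus carries the proteins with little of the mRNA, and cells that hold the mRNA are immature. Monocyte precursors also make both proteins, in smaller amount.

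The adjacent tissue libraries held 1803 (Ctrl) and 542 cells (Tim3-KD), the micrometastasis libraries 5106 and 5142, and the macrometastasis libraries 4913 and 5502. Their totals ran from 7086525 to 79971712 unique molecular identifiers (UMIs, each standing for 1 captured molecule), with medians of 6300 to 10248 per cell. All levels are given as CPM, UMIs of the gene per 1000000 of all UMIs of the cells concerned, and brackets of 95% (exact Poisson for a level, exact conditional binomial for a ratio, Clopper-Pearson for a share) cover counting error only. A 3' UMI is counted per molecule whatever the transcript's length, so the levels of the genes were not divided by length. The adjacent tissue Tim3-KD library stands apart from the others: it held 0 Elane UMIs and 1 Mpo UMI, and no cell of any precursor class. Where values of the other 5 libraries follow each other, they are in a fixed order: adjacent tissue Ctrl, micrometastasis (Ctrl, then Tim3-KD) and macrometastasis (Ctrl, then Tim3-KD). At most 11 cell barcodes were shared by any pair of libraries.

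Cells were clustered on 1637 genes that left out Elane, Mpo, Prtn3, Ctsg and Prss57, so these 5 genes did not themselves shape the clusters. The names that follow come from fixed marker lists and carry the ending "-like". Progenitor-like cells (556) had Cd34, a stem and progenitor surface antigen, at 223 CPM, with a UMI in 90.8% of cells. Promyelocyte-like cells (500) had Ms4a3, a marker of granulocyte and monocyte precursors, at 2583 CPM. Ms4a3 was used in the clustering and the naming, so the levels of genes that follow it are not independent of how this class was formed. Myelocyte-like cells (1116) had Fcnb (ficolin B) at 526 CPM and Mki67, a proliferation marker, in 98.5% of cells. Metamyelocyte-like cells (1082) were highest for Ltf, which encodes lactoferrin, at 6566 CPM, and mature neutrophil-like cells (7369) followed. Monocyte-like cells fell into a cluster of 687 cells with Mki67 in 92.6% of cells, here called proliferating, a cluster of 1569 cells with Mki67 in 3.76%, and a small one of 70 cells. Mki67 was also present in 63.8% of progenitor-like and 89.4% of promyelocyte-like cells.

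Elane lies at chr10:79886247-79888215 on the plus strand of GRCm38 and has 5 exons in the GENCODE annotation. Prtn3, the gene of proteinase 3 and a further azurophil protease, lies on the same strand and ends 3072 bases before the start of Elane. Mpo is at chr11:87793581-87804413 on the plus strand, with 14 exons in its first annotated transcript. The bases shown for these 3 genes end just before the annotated exon nearest to the RefSeq start. Prtn3 is included because it is the neighbour of Elane and the gene most like it across clusters. They are plus-strand sequence of RefSeq, 5' to 3', and capitals mark the letters GGAA (the core bound by ETS factors such as PU.1) and AACNG (the core bound by MYB), on either strand. The Prtn3 stretch lies inside the annotated gene, whose longest model starts at position 79874476, and the other two lie before the annotated gene. They cover chr10:79886062-79886246, chr10:79879417-79879613 and chr11:87793534-87793580.
Elane: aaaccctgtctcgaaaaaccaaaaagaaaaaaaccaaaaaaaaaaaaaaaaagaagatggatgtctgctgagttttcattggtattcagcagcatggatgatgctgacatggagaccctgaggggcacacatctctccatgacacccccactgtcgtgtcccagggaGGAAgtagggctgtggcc
Prtn3: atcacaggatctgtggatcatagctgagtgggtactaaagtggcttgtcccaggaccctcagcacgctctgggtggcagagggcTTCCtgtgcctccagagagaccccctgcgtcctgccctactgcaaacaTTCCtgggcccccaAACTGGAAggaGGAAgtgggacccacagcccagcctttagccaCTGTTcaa
Mpo: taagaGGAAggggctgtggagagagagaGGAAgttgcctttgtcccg

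The annotated first exon and the RefSeq start differ for these genes, and a MYB core with 10 bases on each side is therefore also shown from inside the RefSeq window. Capitals mark only this core here, so a further minus-strand match in the Prtn3 stretch is in lower case.
Elane: ggggcaatacAACGGcctctggttc
Prtn3: gccactgttcAACGGctcccggcag
Mpo: tgagaagcctAACTGtcttcagcca
These stretches are chr10:79886252-79886276, chr10:79879602-79879626 and chr11:87793609-87793633. In the 250 bases before the RefSeq start, GGAA occurred 2 times for Elane, 4 times for Prtn3 and 5 times for Mpo, and AACNG 2, 3 and 1 times, counting both strands. The AACGG of Elane began 50 bases and that of Prtn3 55 bases before the RefSeq start. Of all 32851 mouse windows of the same length, 93.4% held GGAA and 74.2% held AACNG, so a match is common. The letters TTNNGNAA (a C/EBP site) and TGNGGT (a RUNX site) were not in any of the 3 windows, against 36.8% and 40.1% of all windows. In Prtn3 an AACTG and a GGAA share 1 base.

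Both genes were highest in promyelocyte-like cells. On either side of this class they differed: Mpo was the higher of the pair in progenitor-like cells and Elane in myelocyte-like cells. Pooled over libraries, Elane stood at 626 CPM in progenitor-like, 8344 in promyelocyte-like, 3366 in myelocyte-like, 24.1 in metamyelocyte-like and 6.57 CPM in mature neutrophil-like cells. Mpo stood at 1945, 5143, 1003, 10.2 and 8.36 CPM in the same order. From promyelocyte- to metamyelocyte-like cells the pooled level of both genes thus fell by more than 2 orders of magnitude. In the macrometastasis libraries the Elane step was smaller, from 7403 to 120 CPM in Ctrl and from 7914 to 104 CPM in Tim3-KD.

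**Figure D1:**
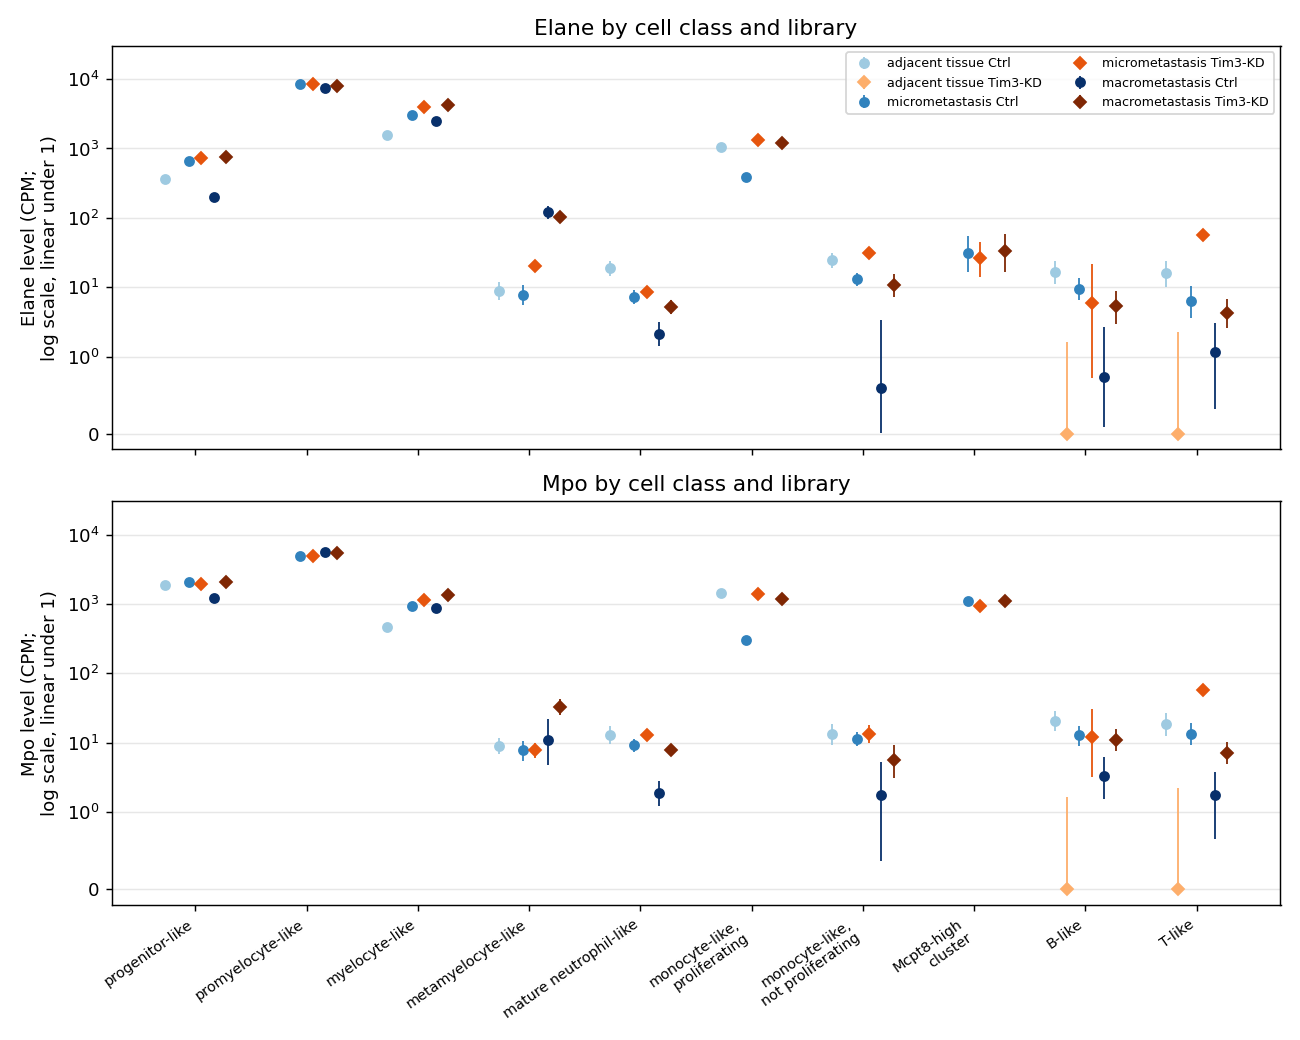
Level of Elane (upper panel) and Mpo (lower panel) in CPM on an axis that is logarithmic above 1 and linear below, for each cell class with at least 20 cells in a library. Each point is 1 library with its 95% Poisson interval, circles are Ctrl and diamonds Tim3-KD. The 4 promyelocyte-like points lie between 7403 and 8549 CPM for Elane and between 4923 and 5559 for Mpo, above every other class.

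In promyelocyte-like cells the Elane level was 8509 CPM (8419 to 8599) in micrometastasis Ctrl, 8549 (8496 to 8602) in micrometastasis Tim3-KD, 7403 (7259 to 7550) in macrometastasis Ctrl and 7914 (7840 to 7988) in macrometastasis Tim3-KD. The 11 such cells of adjacent tissue Ctrl gave 9207 CPM. Mpo was at 4923, 4935, 5559 and 5462 CPM in the 4 larger libraries and at 6411 in the 11 cells. Elane was thus higher in the micrometastasis libraries than in the macrometastasis libraries and Mpo lower. The margins were beyond counting error but small beside the gaps between classes. Counting error leaves out the spread between cells, against which these margins were not tested. A doublet score over 0.15 was seen in all 27 such cells of macrometastasis Ctrl and in 27 of 95 in its Tim3-KD library. In micrometastasis it was seen in 27 of 72 (Ctrl) and 15 of 295 (Tim3-KD). Every one of the 500 cells held a UMI of both genes, with a median of 366 Elane and 215 Mpo UMIs per cell. The middle 80% of the cells lay between 4503 and 12890 CPM for Elane and between 3513 and 6800 CPM for Mpo, so cell-to-cell spread was wider for Elane.

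In progenitor-like cells Mpo led. In the 5 libraries, in the fixed order, its level was 1894, 2087, 1960, 1228 and 2075 CPM. Elane was at 363, 666, 736, 198 and 753 CPM, below Mpo in each. Macrometastasis Ctrl was the lowest for both genes. Of these cells, 42.4% held both transcripts, 36.7% held Mpo alone, 0.899% held Elane alone and 20.0% held neither. Almost all Elane-positive progenitor-like cells were thus Mpo-positive, whereas the converse did not hold. Progenitor-like cells with an Ms4a3 UMI (289) had Elane at 942 and Mpo at 2737 CPM, and those without one (267) had Elane at 10.7 and Mpo at 399 CPM. The Mpo level of the Ms4a3-negative cells ran from 152 to 554 CPM over libraries, above that of lymphocytes, while Elane in them ran from 7.48 to 18.6 CPM, a level also met in lymphocytes of some libraries. Within each library this Elane level was above that of B-like cells, with overlapping intervals except in macrometastasis Ctrl. There it was 7.48 CPM (3.23 to 14.7), from 8 UMIs, against 0.742 CPM (0.0899 to 2.68) in B-like cells.

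In myelocyte-like cells the order was turned round. Over the same 5 libraries Elane was at 1575, 3075, 3906, 2496 and 4282 CPM and Mpo at 460, 937, 1130, 888 and 1339 CPM. Adjacent tissue Ctrl was the lowest and macrometastasis Tim3-KD the highest for both genes. These averages cover a wide range of cells: 65.6% held both genes and 21.3% neither, the median cell had Elane at 970 CPM, and the upper 10% lay above 9610 CPM, inside the promyelocyte range. Across the 1116 cells, which share libraries and depth, the levels of the 2 genes had a Pearson correlation of 0.93, given as a description.

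In metamyelocyte-like cells the counts of both genes were low, and in part no higher than in lymphocytes. Elane was at 8.91, 7.80, 20.1, 120 and 104 CPM in the fixed order, with only 37 and 73 cells in the last 2 libraries, and Mpo at 9.09, 7.80, 7.86, 11.03 and 33.2 CPM. The macrometastasis libraries were the higher ones for Elane, but few cells carried this: 6 of the 37 and 13 of the 73 cells held all 87 and 170 Elane UMIs, and single cells held 38 and 64 of them. The median cell was at 0. Set beside the B-like and T-like cells of the next paragraph, with the highest lymphocyte barcode of each library left out, metamyelocyte-like cells were above them for Elane in micrometastasis Tim3-KD and both macrometastasis libraries and for Mpo in both macrometastasis libraries, and below them in the other libraries. In 12.9% of these cells an Elane UMI was found and in 13.4% a Mpo UMI.

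Mature neutrophil-like cells held both genes at levels close to those of lymphocytes, which should not express either gene. Elane was at 18.8, 7.28, 8.45, 2.14 and 5.24 CPM in the fixed order, and Mpo at 13.02, 9.17, 13.1, 1.91 and 7.99 CPM. B-like and T-like cells together had Elane at 16.2, 8.20, 48.7, 0.985 and 4.72 CPM and Mpo at 20.0, 13.1, 50.8, 2.46 and 8.74 CPM. A single T-like barcode of micrometastasis Tim3-KD held 94 Elane and 90 Mpo UMIs, and without it that library's lymphocyte values were 8.79 and 12.8 CPM. By share, 4.10% of mature neutrophil-like cells had an Elane UMI and 5.35% a Mpo UMI, against 3.05% and 4.75% of B-like and 3.29% and 5.13% of T-like cells. Median depths were 4932 to 5795 UMIs per mature neutrophil-like cell over libraries with at least 20 of them, and 3484 to 9590 per B-like cell. Without that barcode, mature neutrophil-like cells were above the lymphocytes of their library in 3 of 5 libraries for Elane and in 1 of 5 for Mpo, and the 95% intervals of both classes overlapped in each library. In macrometastasis Ctrl, where the Elane values lie furthest apart, a single mature neutrophil-like barcode held 14 of the 27 Elane UMIs. The counts in mature neutrophil-like cells were not separable from background at this depth and are not read as expression. The library order was also alike, with adjacent tissue Ctrl highest and macrometastasis Ctrl lowest for Elane once the single barcode was left out.

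The Elane to Mpo ratio rose from progenitor- through promyelocyte- to myelocyte-like cells. It was 0.322 Elane UMIs per Mpo UMI in progenitor-like cells (0.161 to 0.376 over 5 libraries), 1.62 in promyelocyte-like cells (1.33 to 1.73) and 3.36 in myelocyte-like cells (2.81 to 3.46). These 3 ranges do not overlap, so every library gave the same order. Metamyelocyte-like cells did not continue it: their pooled ratio was 2.37, and by library it ran from 0.981 to 10.9, the latter from 87 Elane and 8 Mpo UMIs, a range that spans those of promyelocyte- and myelocyte-like cells. Within single cells with at least 10 UMIs of the 2 genes, more Elane than Mpo was seen in 1.27% of 316 progenitor-like, 83.6% of 500 promyelocyte-like and 98.7% of 677 myelocyte-like cells. In mature neutrophil-like, B-like and T-like cells the pooled ratios were 0.786, 0.645 and 0.816. By library the mature neutrophil-like ratio ran from 0.643 to 1.45, the latter from 68 Elane and 47 Mpo UMIs of adjacent tissue Ctrl and inside the promyelocyte-like range.

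**Figure D2:**
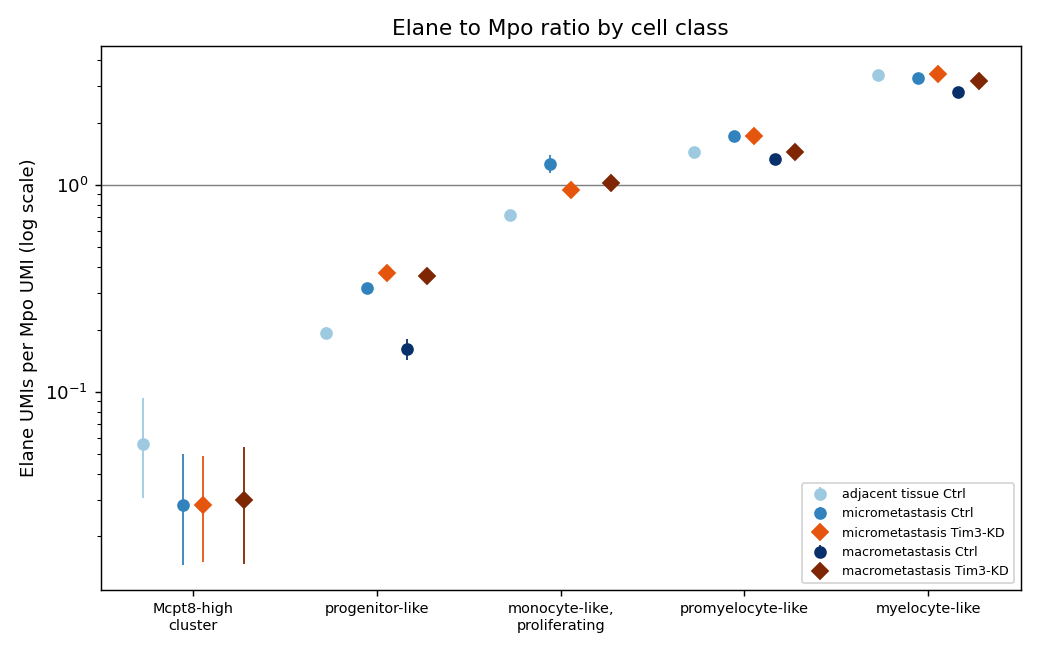
Elane UMIs per Mpo UMI (log scale) by cell class, with 1 point per library and its 95% conditional binomial interval, circles for Ctrl and diamonds for Tim3-KD. Classes of a library with under 10 cells are left out. The ratio climbs from 0.0330 in the Mcpt8-high cluster through 0.322 in progenitor-like to 3.36 in myelocyte-like cells (pooled values), and the line at 1 marks equal counts.

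The same order was seen inside the promyelocyte-like class, by genes that the ratio does not use. The 100 cells with a Cd34 UMI had Elane at 5283 and Mpo at 5044 CPM, and the 400 without one had Elane at 9425 and Mpo at 5178 CPM. The 370 cells with an Fcnb UMI had Elane at 9438 and Mpo at 5175 CPM, and the 130 without one had Elane at 5764 and Mpo at 5068 CPM. Elane thus differed by more than 1.5-fold between the early and late ends of the class, whereas Mpo hardly differed. In both libraries with at least 20 cells on each side of the Cd34 split Elane was lower with Cd34, at 4420 against 9403 CPM in micrometastasis Tim3-KD and 5737 against 9561 CPM in macrometastasis Tim3-KD.

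Ltf gave an ordering across the 3 precursor classes pooled (promyelocyte-, myelocyte- and metamyelocyte-like). With no Ltf UMI (647 cells) Elane was at 8493 and Mpo at 4748 CPM. With up to 1 Ltf UMI per 10000 UMIs Elane was at 8176 and Mpo at 3246 CPM, and with over 1 to 3 Elane was at 5490 and Mpo at 1409 CPM. Mpo had thus dropped further than Elane by this bin. The further bins, over 3 to 10, over 10 to 30 and over 30 Ltf UMIs per 10000, had Elane at 4075, 1930 and 170 CPM and Mpo at 1054, 533 and 50.7 CPM.

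**Figure D3:**
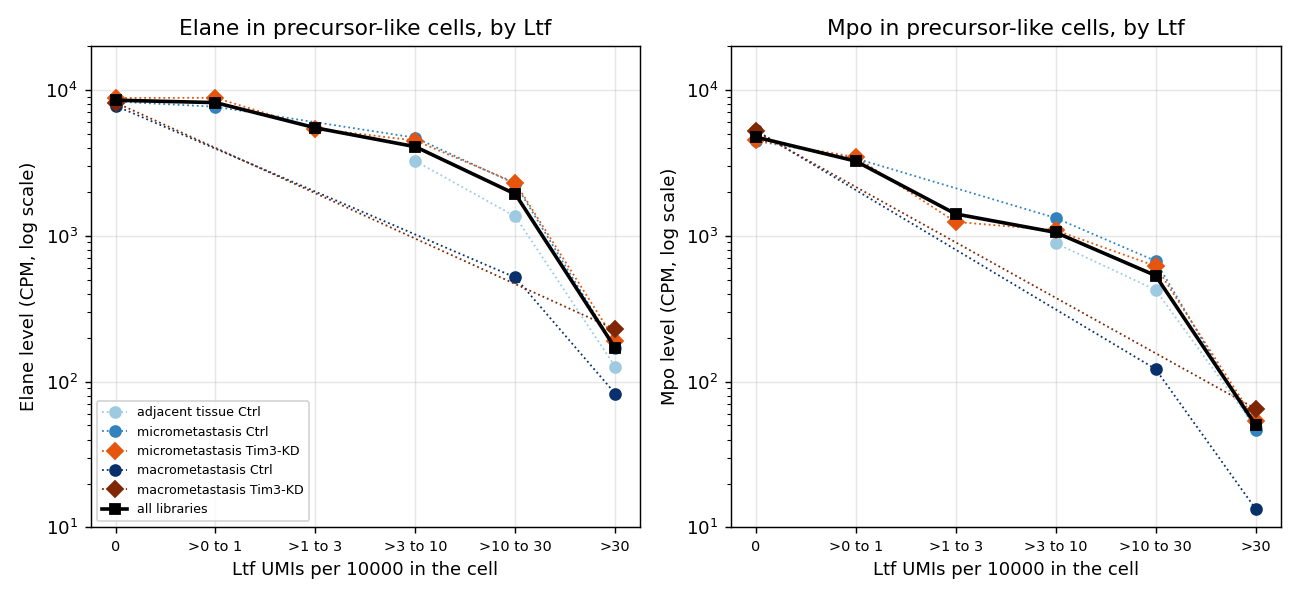
Elane (left) and Mpo (right) in CPM on a log scale in promyelocyte-, myelocyte- and metamyelocyte-like cells, grouped by the Ltf UMIs of the cell per 10000. Black squares pool the libraries, coloured points are single libraries with at least 20 cells in the bin, and dotted lines run straight over bins with fewer. Between the first bin and over 1 to 3 Ltf UMIs the pooled Elane level goes from 8493 to 5490 CPM and the pooled Mpo level from 4748 to 1409.

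Among monocyte-like cells only the proliferating cluster held the 2 genes at a level above lymphocytes in every library. In adjacent tissue Ctrl, both micrometastasis libraries and macrometastasis Tim3-KD, Elane was at 1048, 387, 1343 and 1209 CPM and Mpo at 1461, 307, 1415 and 1187 CPM. Micrometastasis Ctrl was the lowest of these 4 libraries for both genes. Macrometastasis Ctrl had 8 such cells, with 138 and 565 CPM. A doublet score over 0.15 was seen in 26.2% of the cells of this cluster. By library it was 29.5% in adjacent tissue Ctrl, 22.6% and 14.4% in micrometastasis Ctrl and Tim3-KD, and 65.5% in macrometastasis Tim3-KD. The part of these cells in the levels was not tested. Both genes were found together in 66.8% of the 687 cells, and the Elane to Mpo ratio was 0.911, between those of progenitor- and promyelocyte-like cells, with 0.718 to 1.26 in the 4 libraries. Cells with a Cd34 UMI (197) had more Mpo than those without one (1674 against 990 CPM), and less Elane (998 against 1218 CPM), pooled over libraries. By library Mpo was higher with Cd34 in all 4. Elane was lower with Cd34 in adjacent tissue Ctrl and micrometastasis Tim3-KD, but higher in micrometastasis Ctrl and macrometastasis Tim3-KD. F13a1 encodes a coagulation factor subunit that monocytes make. The 33 cells with no F13a1 UMI had Elane at 48.6 and Mpo at 118 CPM, the 80 cells with up to 3 F13a1 UMIs per 10000 had 1703 and 2582 CPM, and the 574 cells with more had 1077 and 1051 CPM. Both genes were thus highest in the middle bin, with no steady course along F13a1.

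The monocyte-like cluster with little Mki67 had Elane at 24.4, 13.1, 31.0, 0.599 and 10.9 CPM in the fixed order, and Mpo at 13.4, 11.5, 13.6, 1.80 and 5.65 CPM. Both sets lie within about 4-fold of the lymphocyte values of the same library, with Elane above them in 4 of 5 libraries when the single T-like barcode is left out and Mpo above them in 1 of 5. Depth differed, with library medians of 7982 to 16285 UMIs per cell in this cluster.

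A cluster of 143 cells stood apart from both lineages, with Mpo at 1095 CPM and almost no Elane, at 36.2 CPM. Its leading genes included Mcpt8 and Prss34, proteases known from basophils, and Gata2, but it held under 3 detected markers of the basophil or mast cell list and was left unnamed. Mpo was at 1114 CPM in micrometastasis Ctrl, 936 in micrometastasis Tim3-KD and 1112 in macrometastasis Tim3-KD, where the cluster had 34 to 52 cells. Only 42.7% of the cells held a Mpo UMI, and cells with a Prss34 UMI had 1443 CPM against 187 without. The Elane to Mpo ratio was 0.0330, below that of every named class. A doublet score over 0.15 was seen in 37.1% of these cells, and its part in the values was not tested.

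By level, Elane fell in the order promyelocyte-like, myelocyte-like, proliferating monocyte-like and progenitor-like. The library ranges of the first 2 classes do not overlap (7403 to 8549 and 1575 to 4282 CPM), nor do those of myelocyte-like and proliferating monocyte-like cells (387 to 1343), but the latter overlap with progenitor-like cells (198 to 753). For Mpo the order was promyelocyte-like (4923 to 5559), progenitor-like (1228 to 2087), proliferating monocyte-like (307 to 1461), the Mcpt8-high cluster (936 to 1114) and myelocyte-like cells (460 to 1339), and all of these but the first overlap with a neighbour. Dendritic-like, natural killer-like, macrophage-like and endothelial-like cells reached at most 23.9 CPM of Elane and 26.3 CPM of Mpo in any library with at least 20 of them.

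A list of 11 genes that encode azurophil contents, granule protease processing or protease inhibitors was set beside Elane and Mpo, of which 7 were in all 3 matrices. Among the neutrophil and monocyte classes, 4 of these 7 were highest in promyelocyte-like cells as Elane and Mpo were: Prtn3 at 14874 CPM, Ctsg (cathepsin G) at 11660, Prss57 (a serine protease of the same granule) at 402 and Cst7 (cystatin F, an inhibitor of cathepsins) at 259. Of these 4, only Cst7 was used in the clustering. Prtn3 followed the course of Elane, with 6279 CPM in myelocyte-like and 2666 in progenitor-like cells. Ctsg followed that of Mpo, with 1549 CPM in myelocyte-like and 1835 in progenitor-like cells, and with 2872 in the Mcpt8-high cluster, where Prtn3 was at 128 CPM. The other 3 were highest elsewhere. Serpinb1a, an inhibitor of elastase and cathepsin G, was highest in myelocyte-like cells at 2283 CPM and still at 1086 in metamyelocyte-like cells, where Elane was at 24.1. Ctsc, which activates the granule proteases, was at 28.1 CPM in promyelocyte-like cells and at 931 in the monocyte-like cluster with little Mki67. Slpi, a secreted elastase inhibitor, was at 400 CPM in that cluster and at 336 in mature neutrophil-like cells. Calr, the gene of a chaperone that binds the myeloperoxidase precursor, was measured in micrometastasis only, with 2409 and 2198 CPM in promyelocyte-like cells of Ctrl and Tim3-KD and 204 and 244 in myelocyte-like cells. Lyz2, the lysozyme gene, was measured in macrometastasis only and was at 90.3 and 44.3 CPM in promyelocyte-like against 3411 and 2884 CPM in myelocyte-like cells. Srgn and Bpi were not analysed here.

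Across the 26 clusters of at least 50 cells, the 5 genes most like Elane by Pearson correlation of log2(CPM + 10) were Prtn3 (0.957), Ms4a3 (0.946), Prss57 (0.920), Mpo (0.920) and Ctsg (0.906). For Mpo they were Ctsg (0.994), Ms4a3 (0.966), Elane (0.920), Prtn3 (0.890) and Prss57 (0.883). The clusters share libraries, and the 2 lists have Ctsg, Ms4a3, Prss57 and Prtn3 in common.

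Of 8 regulators, 5 were in all 3 matrices. Myb, needed in myeloid progenitors, was at 147 CPM in progenitor-like and 152 in promyelocyte-like cells and at 14.8 in myelocyte-like cells. Cebpe, which drives the specific granule genes, rose in the other direction, from 18.6 through 387 to 690 CPM. Cebpe is itself on the promyelocyte and myelocyte marker lists, so this course is in part set by the naming. Cebpa was at 11.2 CPM in progenitor-like, 8.74 in promyelocyte-like and 1.54 in myelocyte-like cells, below its 27.2 CPM in the monocyte-like cluster with little Mki67 and 65.2 in the Mcpt8-high cluster, and Cebpd was, of the neutrophil and monocyte classes, highest in mature neutrophil-like cells at 45.9 CPM. Irf8, a monocyte and dendritic cell factor, separated the 2 Elane-positive lineages, with 344 CPM in proliferating monocyte-like and 4.33 in promyelocyte-like cells. Gfi1, Runx1 and Spi1 were not analysed here.

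Of the 10 genes of later granules and of the mature surface, 7 were in all 3 matrices and none was highest in promyelocyte-like cells among the same classes. All 7 were used in the clustering and stand on the fixed marker lists. Where they peak is thus in part set by how the classes were formed and named, and is given as a description. Fcnb was highest in myelocyte-like cells at 526 CPM, and Ltf, Ly6g and Cd177 in metamyelocyte-like cells at 6566, 1175 and 987 CPM. Mmp8 and Mmp9, the collagenase and gelatinase genes, were highest in mature neutrophil-like cells at 1167 and 692 CPM. Chil3 was highest in the monocyte-like cluster with little Mki67 at 2387 CPM, ahead of 1434 in myelocyte-like cells. Camp, Ngp and Lcn2 were measured in macrometastasis only. In its Tim3-KD library they were at 16707, 27920 and 10859 CPM in myelocyte-like against 99.8, 415 and 137 CPM in promyelocyte-like cells.

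Setting Tim3-KD beside Ctrl asks whether loss of Tim3 in the tumour cells altered the leukocytes around them. Over whole libraries both genes were higher with Tim3-KD in micrometastasis (Elane 2.19-fold, 2.17 to 2.21; Mpo 2.04-fold, 2.02 to 2.07) and in macrometastasis (3.14-fold, 3.09 to 3.19; 3.22-fold, 3.16 to 3.29). With 1 library per group a gene was called by size alone, at 1.5-fold; 2.7% of all genes were that much higher in micrometastasis, against 37.5% that much lower, and 4.58% were higher in macrometastasis. In adjacent tissue both were lower with Tim3-KD, Elane by at least 1691-fold at a floor of 3 UMIs in the library and Mpo with a ratio of 0.000219 (5.54e-06 to 0.00122) from 1 UMI against 19732, where 13.7% of genes were 1.5-fold lower. The median gene was also shifted between whole libraries, by -0.43 in micrometastasis, -0.26 in macrometastasis and 0.59 in adjacent tissue on the log2 scale. Relative to a trimmed mean over genes, the log2 ratios were 1.56 and 1.46 for Elane and Mpo in micrometastasis and 1.92 and 1.96 in macrometastasis. Weighting cells equally or leaving out doublet-scored cells also gave higher ratios at both sites, with the values in the closing section.

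Precursor cells were a larger part of the Tim3-KD libraries in micrometastasis and macrometastasis. Promyelocyte-like cells were 1.41% of cells in micrometastasis Ctrl and 5.74% in Tim3-KD, and 0.550% and 1.73% in macrometastasis. Myelocyte-like cells were 4.21% and 12.0%, and 1.14% and 1.87%. In adjacent tissue Ctrl the shares were 0.610% and 7.04%. In its Tim3-KD library 0 of 542 cells were of either class, which at the floor of 3 cells allows a share up to 0.554%. A doublet score over 0.15 was seen in 37.5% (Ctrl) and 5.08% (Tim3-KD) of promyelocyte-like cells in micrometastasis, and in 100% and 28.4% in macrometastasis. For myelocyte-like cells it was 27.9% and 12.2%, and 73.2% and 60.2%. The part of these cells in the shares was not tested. Promyelocyte- and myelocyte-like cells together carried 73.4% to 96.7% of the Elane UMIs and 38.0% to 80.1% of the Mpo UMIs of the 5 libraries that held them. With progenitor-like and proliferating monocyte-like cells added, they carried at least 98.8% and 97.5%, while being 2.89% to 28.5% of the cells.

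**Figure D4:**
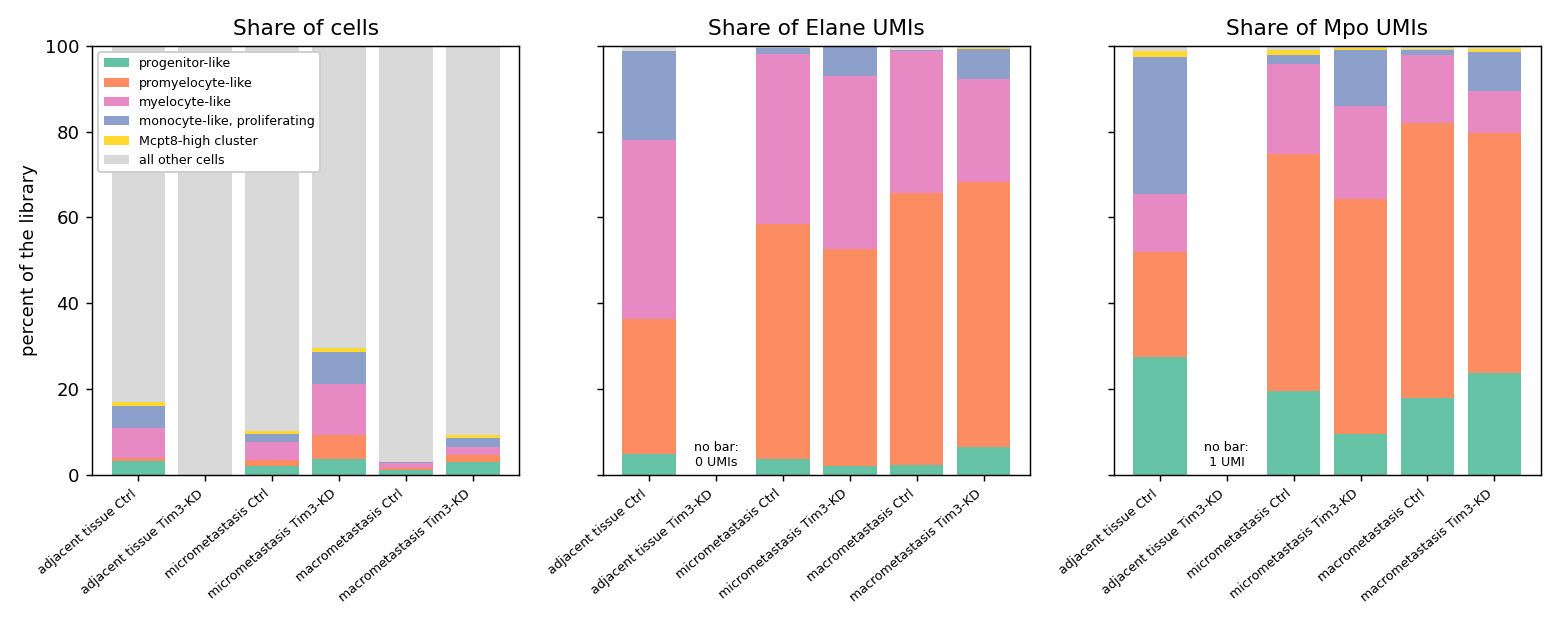
Percent of the cells (left), of the Elane UMIs (middle) and of the Mpo UMIs (right) of each library that fall in each cell class, as stacked bars from 0 to 100. Promyelocyte- and myelocyte-like cells are 1.69% of the cells of macrometastasis Ctrl but hold 96.7% of its Elane UMIs, and adjacent tissue Tim3-KD has no bar for UMIs since it holds 0 and 1.

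Shares of cells and of UMIs differ, since cells differ in depth: promyelocyte-like cells held 7.22% (Ctrl) and 14.5% (Tim3-KD) of all UMIs in micrometastasis and 3.11% and 8.88% in macrometastasis. When each class was given its Tim3-KD level but its Ctrl share of the UMIs, the whole-library ratio was 1.15 for Elane and 1.11 for Mpo in micrometastasis and 1.37 and 1.23 in macrometastasis. With the Tim3-KD shares and the Ctrl levels it was 1.88 and 1.76, and 2.35 and 2.65. None of the 4 ratios with the Ctrl shares passed 1.5-fold, and all 4 with the Tim3-KD shares did. These ratios were not computed again without doublet-scored cells. With single clusters of 4 clusterings in place of the classes, a choice made after the data had been seen, the highest ratio with the Ctrl shares was 1.37 and the lowest with the Tim3-KD shares 1.76.

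Within promyelocyte-like cells neither gene differed by 1.5-fold. The Tim3-KD to Ctrl ratio was 1.00 (0.992 to 1.02) for Elane and 1.00 (0.986 to 1.02) for Mpo in micrometastasis, and 1.07 (1.05 to 1.09) and 0.983 (0.958 to 1.01) in macrometastasis. Of all genes in these cells, 7.52% and 24.7% were 1.5-fold higher and 13% and 14.4% lower. A doublet score over 0.15 was seen in all 27 promyelocyte-like cells of macrometastasis Ctrl, against 27 of 95 in Tim3-KD, 27 of 72 in micrometastasis Ctrl and 15 of 295 in its Tim3-KD library. Whether these cells are true doublets was not tested. Leaving such cells out takes away almost all Elane and Mpo of macrometastasis Ctrl and moves the whole-library log2 ratios to 5.08 and 5.71.

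Within myelocyte-like cells the ratios were 1.27 (1.25 to 1.29) for Elane and 1.21 (1.17 to 1.24) for Mpo in micrometastasis, under the 1.5-fold size that 9.62% of genes passed upward. They were 1.72 (1.66 to 1.77) and 1.51 (1.43 to 1.59) in macrometastasis, where 9.77% of genes were that much higher. These values rest on where the class is bounded: at a clustering resolution of 1.5 the micrometastasis log2 ratios were -0.31 and -0.56, and at a resolution of 0.6 the macrometastasis values were 0.37 for Elane and -0.16 for Mpo. With doublet-scored cells left out the macrometastasis values were 0.44 and 0.43, and both genes were then under 1.5-fold. In a second clustering of the lineage cells alone, chosen after the data had been seen, the class fell into 2 clusters, of 779 and 323 cells, the latter led by histone genes. These 2 clusters split by library: micrometastasis Ctrl had 45 cells in the larger and 177 in the smaller one, and micrometastasis Tim3-KD 579 and 4. The ratios for the whole class in micrometastasis thus compare mostly different clusters, and the part of this split in them was not tested. Within the larger cluster the micrometastasis levels were 3292 CPM (Ctrl) and 3702 CPM (Tim3-KD) for Elane and 913 and 1040 CPM for Mpo. In macrometastasis 9 Ctrl and 25 Tim3-KD cells were in the larger cluster and 54 and 88 in the smaller one, where Elane was at 3867 and 6039 CPM and Mpo at 1883 and 2119 CPM. At matched Ltf the micrometastasis libraries were close. The Tim3-KD to Ctrl ratios in the 5 bins with at least 20 cells in both lay between 0.956 and 1.15 for Elane and between 0.825 and 1.15 for Mpo. In macrometastasis they were 1.05 (Elane) and 0.982 (Mpo) with no Ltf, and 2.76 (2.20 to 3.50) and 4.85 (2.82 to 9.06) above 30 Ltf UMIs per 10000, where both genes were low.

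Within progenitor-like cells the ratio was 1.11 for Elane and 0.939 for Mpo in micrometastasis, where 8.46% of genes were 1.5-fold higher. In macrometastasis it was 3.81 (3.41 to 4.27) and 1.69 (1.61 to 1.77), where 14.9% of genes were 1.5-fold higher. The Ctrl side holds 51 cells and 336 Elane UMIs, and 39 of the 51 were without an Ms4a3 UMI, against 72 of 160 in Tim3-KD. At a clustering resolution of 1.5 the macrometastasis log2 ratios were 0.73 and 0.42, against 1.93 and 0.76 here. A doublet score over 0.15 was seen in 32.4% and 12.6% of the progenitor-like cells of micrometastasis Ctrl and Tim3-KD, and in 51.0% and 49.4% of those of macrometastasis. Without these cells the log2 ratios were 1.04 and 0.24 in micrometastasis, where Elane was then over 1.5-fold, and 4.79 and 2.63 in macrometastasis. Within proliferating monocyte-like cells of micrometastasis the ratios were 3.47 (3.24 to 3.72) for Elane and 4.61 (4.28 to 4.98) for Mpo, where 11.7% of genes were 1.5-fold higher. When the lineage cells were clustered again by themselves the log2 ratios were 0.89 and 0.91, against 1.80 and 2.21 here. Adjacent tissue Ctrl, at 1048 and 1461 CPM, lay nearer to micrometastasis Tim3-KD than to micrometastasis Ctrl.

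**Figure D5:**
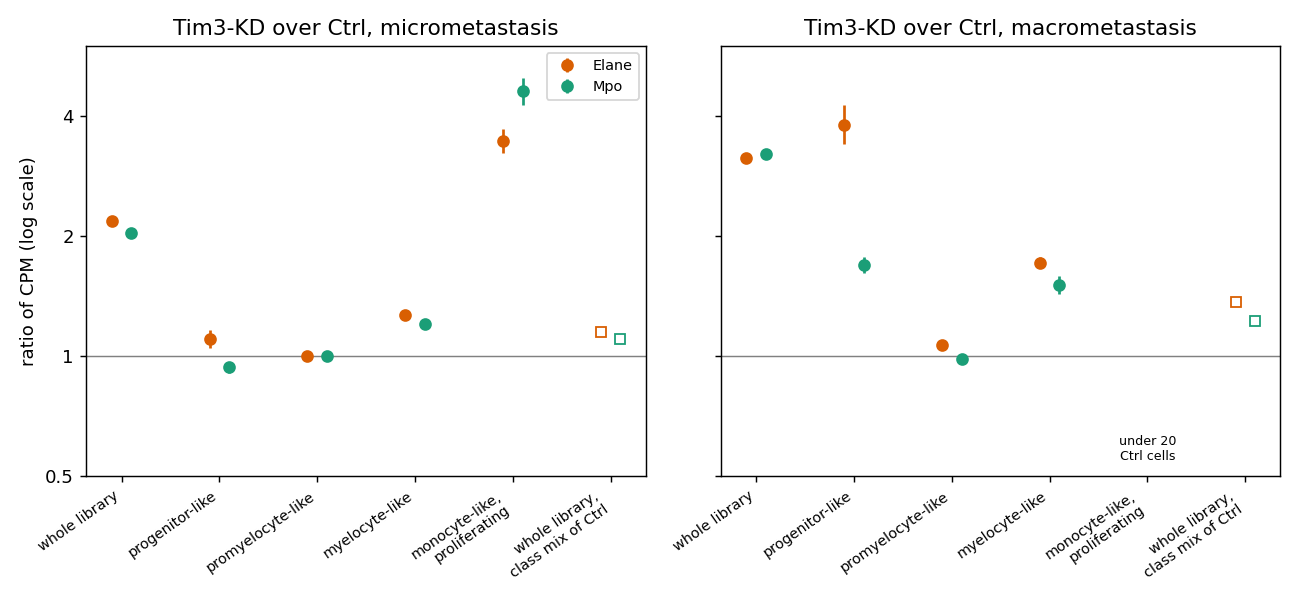
Ratio of the CPM of Tim3-KD to that of Ctrl (log scale) in micrometastasis (left) and macrometastasis (right), for the whole library and for the classes that had 20 or more cells on both sides. Filled circles carry 95% conditional binomial intervals, and open squares give the whole-library ratio with every class held at its Ctrl share of the UMIs. Promyelocyte-like cells lie at 0.983 to 1.07 while the whole libraries lie at 2.04 to 3.22.

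Of the 8 partner genes measured in micrometastasis, 5 were at least 1.5-fold higher over the whole library and 1 (Ctsc) lower, against 2.7% and 37.5% of all genes, with a median ratio of 1.92 against 0.741. In macrometastasis 5 of 8 were higher and none lower, against 4.58% and 23.3% of all genes, with a median of 2.09 against 0.834. Within promyelocyte-like cells none of 8 was called in micrometastasis, against 7.52% of all genes higher and 13% lower, with a median of 1.00 against 0.954. In macrometastasis none was higher and 1 (Lyz2) was lower, against 24.7% and 14.4% of all genes, so that 1 of 8 is at the background. The median was 1.09 against 1.10. In myelocyte-like cells 1 of 8 (Ctsg) was higher and none lower at both sites, where 9.62% and 9.77% of all genes were higher and 11.1% and 24.1% lower, so that 1 of 8 is near the background.

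The regulator list had 1 of 5 higher (Cebpe) and 1 lower (Irf8, 0.581-fold) over the whole micrometastasis library, where 2.7% and 37.5% of all genes were called. In macrometastasis 2 of 5 (Cebpe and Myb) were higher, against 4.58% of all genes, and none was lower. In promyelocyte-like cells Irf8 was lower in micrometastasis and higher in macrometastasis, the latter from 46 UMIs against 1. It was the 1 of 5 regulators called at each site, where 13% of all genes were lower and 24.7% higher, shares that do not set it apart. In myelocyte-like cells of micrometastasis 1 of 5 (Cebpa) passed 1.5-fold, with a ratio of 1.501 (0.705 to 3.56) from 34 against 9 UMIs, which counting error does not separate from no difference; 9.62% of all genes were that much higher. No regulator was called in those of macrometastasis, where 3 were measured and 9.77% of all genes were higher and 24.1% lower.

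Of the later granule list, 2 of 7 (Fcnb and Chil3) were higher and none lower over the whole micrometastasis library, against the same 2.7% and 37.5% of all genes. None of 10 was called in macrometastasis, against 4.58% higher and 23.3% lower. In promyelocyte-like cells of micrometastasis 2 of 5 (Ltf and Chil3) were higher, against 7.52% of all genes. In those of macrometastasis 4 of 6 were lower, against 14.4% of all genes: Camp at 0.520-fold, Ngp at 0.428-fold, Lcn2 at 0.316-fold and Cd177 at 0.292-fold, with a list median of 0.474 against 1.10 over all genes. The Ctrl side of these values is the 27 cells that all had a doublet score over 0.15. In myelocyte-like cells none of 7 was called in micrometastasis, where 9.62% of all genes were higher and 11.1% lower, and 1 of 10 (Mmp8) was lower in macrometastasis, against 24.1% of all genes.

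Between Ctrl sites, micrometastasis had 1.56-fold (1.54 to 1.59) the Elane of adjacent tissue at the same day, where 26.1% of genes were 1.5-fold higher, and 0.995-fold (0.977 to 1.01) the Mpo. The Elane log2 ratio of 0.64 went to 0.15 with doublet-scored cells left out or with cells weighted equally, and to 0.34 relative to the trimmed mean, all under 1.5-fold. For Mpo these values were -0.49, -0.41 and -0.31. Macrometastasis, which differs in site and in day, had 0.506-fold the Elane and 0.418-fold the Mpo of adjacent tissue, where 6.28% of genes were 1.5-fold lower. Against micrometastasis it had 0.324-fold and 0.420-fold, where 6.89% were lower. Without doublet-scored cells the log2 ratios to adjacent tissue were -5.01 and -5.79. These comparisons share the Ctrl libraries and are not independent, and the 3 matrices were processed separately. Proliferating monocyte-like and progenitor-like cells, with their lower Elane to Mpo ratios, were 5.27% and 3.16% of the cells of adjacent tissue Ctrl and 1.82% and 2.06% of those of micrometastasis Ctrl. The part of these shares in the ratios between sites was not tested. Within myelocyte-like cells micrometastasis Ctrl was above adjacent tissue Ctrl for both genes (1.95-fold and 2.04-fold), where 29.7% of genes were 1.5-fold higher. Within proliferating monocyte-like cells it was below (0.369-fold and 0.210-fold), where 8.78% were lower. The latter log2 ratios were -1.44 and -2.25, and became -0.90 and -0.30 at a clustering resolution of 0.6.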

How the data were processed

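Single-cell 3' libraries of sorted CD45+ liver leukocytes were analysed, 1 per group and 6 in all. According to the study's methods and the submitters' processing notes, the authors trimmed reads with Trim Galore 0.4.3, aligned them with STAR 2.7.7a to GRCm38, counted UMIs over exons and introns, removed cells of low quality and doublets, and kept variable genes. The deposited values are a scaled score per cell and gene, capped at 10, and not counts. From their structure each was read as the logarithm of UMIs per 10000 plus 1, with total UMIs regressed out and each gene scaled within a site; this scaling is not given in the sources used here.

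UMIs per gene and cell were recovered by inverting these steps: 99.9968% to 99.9998% of values fell within 0.05 of a whole number, no Elane or Mpo value was at the cap, and 11.3% to 14.7% of all UMIs lay in genes of the matrices. CPM divides by all recovered UMIs of a cell. The inversion was tested on simulated data. The planned analysis assumed counts and was run on the recovered UMIs, with no test between groups.

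Cells of all libraries were clustered on 1637 shared genes with Scanpy 1.11.5 and leidenalg 0.10.2 (30 principal components, 15 neighbours, resolution 1). Markers and named genes were fixed lists; the rule that scores them (at least 3 markers with 2-fold excess and a UMI in 25% of cells) was set after a first clustering was seen. The members and lists were chosen with earlier results of these data known. Doublets had been removed by the authors; a doublet score (Scrublet, 0.15) was computed again and used only as an alternative. Shares were also computed after thinning each cell to 1500 UMIs. Classes with under 20 cells in either library were not compared, and genes were called at 1.5-fold among those with at least 20 UMIs. Named genes were the 2 members, the partner, regulator and later granule lists, the 5 genes most like each member, and cluster markers. Alternatives were scaling, cell weighting, cells under 3000 UMIs, the doublet score, cells at the cap, clustering settings and precursor cells called by 2 Fcnb UMIs. Clustering the lineage cells again, leaving out the highest lymphocyte barcode, comparing precursor cells within Ltf bins and the split by single clusters were chosen after seeing the data.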

Additional observations from a re-analysis of the deposited data

Results flagged for a closer look

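The direction of the Tim3-KD to Ctrl difference was not the same at all sites, and this difference between sites was not tested, since each group is 1 library. In adjacent tissue Elane was at least 1691-fold lower and Mpo had a ratio of 0.000219. In micrometastasis the ratios were 2.19 for Elane and 2.04 for Mpo, and in macrometastasis 3.14 and 3.22. The adjacent tissue Tim3-KD library is also the smallest, with 542 cells, of which 0 were progenitor-, promyelocyte-, myelocyte- or metamyelocyte-like and 19 mature neutrophil-like; its part in the difference was not tested.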

How the results depend on the processing

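Values are log2 ratios, with Elane first and Mpo second, and Tim3-KD is over Ctrl. Over whole libraries both genes stayed above 1.5-fold with Tim3-KD in micrometastasis and macrometastasis under every alternative run. Relative to a trimmed mean over genes these values were 1.56 and 1.46 in micrometastasis and 1.92 and 1.96 in macrometastasis. With cells weighted equally they were 2.07 and 1.89, and 1.82 and 1.89. Without cells of doublet score over 0.15 they were 1.62 and 1.52, and 5.08 and 5.71. Without cells under 3000 UMIs micrometastasis gave 1.11 and 1.01.

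Between Ctrl sites, the trimmed mean gave 0.34 and -0.31 for micrometastasis over adjacent tissue, -1.76 and -2.04 for macrometastasis over adjacent tissue, and -2.16 and -1.79 for macrometastasis over micrometastasis. Equal weights gave 0.15 and -0.41, -1.71 and -1.99, and -1.87 and -1.58. Without doublet-scored cells the values were 0.15 and -0.49, -5.01 and -5.79, and -5.17 and -5.31. Without cells under 3000 UMIs the Elane value of micrometastasis over adjacent tissue was 0.67.

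Within promyelocyte-like cells no alternative that could be computed reached 1.5-fold. In micrometastasis the values were 0.081 and 0.078 (trimmed mean), 0.073 and -0.059 (without doublet-scored cells), 0.10 and -0.048 (resolution 0.6), 0.11 and -0.079 (resolution 1.5), 0.030 for Elane (all shared genes in the clustering), and 0.12 and -0.061 (lineage cells clustered again, chosen after seeing the data). In macrometastasis they were -0.025 and -0.15 (trimmed mean), 0.063 and 0.018 (resolution 1.5) and 0.034 for Elane (all shared genes); without doublet-scored cells no Ctrl cell of the class is left and there is no value.

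Within myelocyte-like cells of micrometastasis the values were 0.41 and 0.33 (trimmed mean), 0.57 and 0.45 (equal weights), 0.43 and 0.41 (without doublet-scored cells), 0.21 and 0.078 (resolution 0.6), -0.31 and -0.56 (resolution 1.5), 0.22 and 0.10 (all shared genes), and -0.012 and -0.18 (clustered again). In macrometastasis they were 0.95 and 0.76, 0.73 and 0.50, 0.44 and 0.43, 0.37 and -0.16, 0.70 for Elane, 1.03 and 0.89, and 0.55 and 0.041 in the same order. The cause was not tested.

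The share of Elane UMIs in promyelocyte- and myelocyte-like cells was 97.2% in macrometastasis Ctrl at resolution 0.6. At resolution 1.5 it was 76.2% in adjacent tissue Ctrl, 96.9% and 92.3% in micrometastasis Ctrl and Tim3-KD, and 90.5% in macrometastasis Tim3-KD. The Mpo shares were then 44.8%, 83.7%, 81.4%, 83.0% (macrometastasis Ctrl) and 76.7%.

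Of 36 thinned shares of cells with a UMI, 30 moved by more than their interval when cells were not thinned. The shares of cells with a UMI given in the Results are unthinned unless marked as thinned. For Elane in progenitor-like cells the share was 43.3% unthinned and 20.7% thinned. Of 14 further class ratios, all 14 kept their value without cells under 3000 UMIs, while 12 moved without doublet-scored cells, and 9 moved both relative to the trimmed mean and with equal weights; none of those past 1.5-fold turned direction. Precursor cells called by 2 Fcnb UMIs gave 0.20 and 0.18 in micrometastasis and 0.64 and 0.43 in macrometastasis. No member value was at the cap, so leaving out capped cells changed nothing, and the Elane ratio of adjacent tissue has no alternative values since its Tim3-KD library holds 0 UMIs. No paired analysis was run, and each group is 1 library. The number of cells limits the smallest classes, such as the 27 promyelocyte-like cells of macrometastasis Ctrl, and depth limits the low levels in mature neutrophil-like cells.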
